A study of Mus musculus with 6 samples.

Results

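The genes described here were 40 genes of glycolysis and of the response to hypoxia, chosen by name as known members of these pathways. They comprised 25 genes of glucose uptake, glycolysis and lactate handling, 4 subunits of the hypoxia-inducible factor (HIF), and 11 further genes known as HIF targets. All 40 were found by gene symbol among the 57010 gene rows of the count table, and all 40 were among the 14799 genes with enough counts to be tested. Aldoa stood on a pair of rows, of which the second held 2 to 11 counts per library and was not tested.

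The RNA came from primary neonatal mouse cardiomyocytes (NMCMs), isolated from the hearts of C57BL/6 mice aged 1 to 3 days by trypsin digestion and parted from cardiac fibroblasts by letting the latter adhere. Both groups were kept under hypoxia (HO). The HO + Vehicle group (V1, V2 and V3) received vehicle and the HO + β-SITO group (T4, T5 and T6) received β-sitosterol, a plant sterol, with 3 RNA-seq libraries in each. The dose, the exposure time and whether libraries came from separate cultures were not stated in the sources used here, so p-values measure only the spread between these libraries. No normoxic library was used here, so the values compare the groups under hypoxia and do not give a response to hypoxia.

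In glycolysis, glucose enters the cell through membrane transporters, is phosphorylated by hexokinase and split into trioses, and is then oxidised to pyruvate, which lactate dehydrogenase can reduce to lactate. HIF is a dimer of an oxygen-regulated α subunit (encoded by Hif1a, Epas1 or Hif3a) and a stable partner encoded by Arnt. When oxygen is plentiful, prolyl hydroxylases of the EGLN family mark the α subunits for destruction through VHL, and when oxygen falls the dimer binds DNA and raises transcription of glucose transporters, glycolytic enzymes, lactate dehydrogenase and the lactate exporter. This control acts largely on the protein, which RNA-seq does not measure. The neonatal heart relies more on glycolysis than the adult heart, and muscle uses its own paralogs of several of these enzymes.

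The libraries held 16694734 to 18460522 counts. Levels are given as CPM, the counts scaled to the size of each library with edgeR's TMM factors. Levels of different genes are set side by side as CPM per kilobase of exon unless stated. Cardiomyocyte markers were present in all libraries, with a summed level of 10 genes of 6358 to 7251 CPM in HO + Vehicle and 5257 to 8630 CPM in HO + β-SITO. Of these 10, Myh7 (log2 fold change 1.61), Ttn (0.80) and Myh6 (0.53) rose, Tnnt2 (-0.47) and Pln (-0.42) fell and 5 did not pass the test. Markers of other cells were present too, and their sums differed between the groups, although members of a list did not all move together. The sum of 8 fibroblast markers was 29830.0 to 31110.0 CPM in HO + Vehicle and 44410.0 to 45500.0 CPM in HO + β-SITO, that of 6 endothelial markers 171 to 197 and 708 to 741 CPM, that of 6 smooth muscle and pericyte markers 1080.0 to 1163 and 1856 to 2097 CPM, and that of 8 macrophage markers 1133 to 1255 and 2234 to 2740.0 CPM. The fibroblast sum was mostly Col1a1, Col1a2 and Col3a1, and of the 8 markers 5 rose, Dcn (log2 fold change -0.52) and Postn (-0.22) fell and Pdgfra did not pass the test. Of the 8 macrophage markers, 5 rose, among them Lyz2 (1.12), the most abundant, and Mrc1 (4.79), while Cd14 (-1.56) and Fcgr1 (-2.18) fell and Adgre1 did not pass. In the same order, 4 proliferation markers summed to 179 to 199 and 323 to 350.4 CPM and 4 neutrophil markers to 14.7 to 16.1 and 3.32 to 5.55 CPM. Csf3r made up nearly all of the neutrophil sum and was the only one of the 4 with enough counts to be tested, with S100a8 and S100a9 under 1 CPM on average in both groups and Ly6g at 0 throughout. The share of counts from mitochondrially encoded genes was 1.19% to 1.32% in HO + Vehicle and 1.87% to 2.26% in HO + β-SITO. The part of these shifts in the results was not tested, and in bulk RNA fewer cells of a type and less RNA per cell cannot be told apart. The library names of the HO + β-SITO group alone carry a suffix, so a separate preparation and the treatment cannot be told apart.

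T4 stood apart within its group for these genes. It was the lowest HO + β-SITO library for 35 of the 40 genes, and its cardiomyocyte marker sum was 5257 CPM beside 8564 CPM in T5 and 8630.0 CPM in T6. No such count over all tested genes was at hand, so whether this was particular to these genes is not known. Values without T4 are given wherever leaving it out changed a call.

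Between the groups, a gene was said to have risen or fallen in HO + β-SITO when the adjusted p of edgeR's quasi-likelihood test was under 0.05, and it was called a differentially expressed gene (DEG) when it also changed more than 2-fold. Of the 40 genes, 5 were DEGs with lower expression in HO + β-SITO (Slc2a1, Hk2, Pfkl, Hif1a and P4ha2), beside 10.1% of all tested genes, and 4 were DEGs with higher expression (Aldoc, Hif3a, Car9 and Ankrd37), beside 12.8%. These DEG counts lay near the shares over all tested genes. By the test alone, 19 of the 40 fell, beside 33.8% of all tested genes, 11 rose, beside 33%, and 10 did not pass (66.8% of all tested genes passed in either direction). The median log2 fold change was -0.19 over the 40 genes and -0.01 over all tested genes. In 19 of the 40 every HO + β-SITO library was below every HO + Vehicle library (35.8% of all tested genes), in 9 every one was above (34.8%), and in 12 the groups overlapped (70.5% of all tested genes did not overlap).

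**Figure D1:**
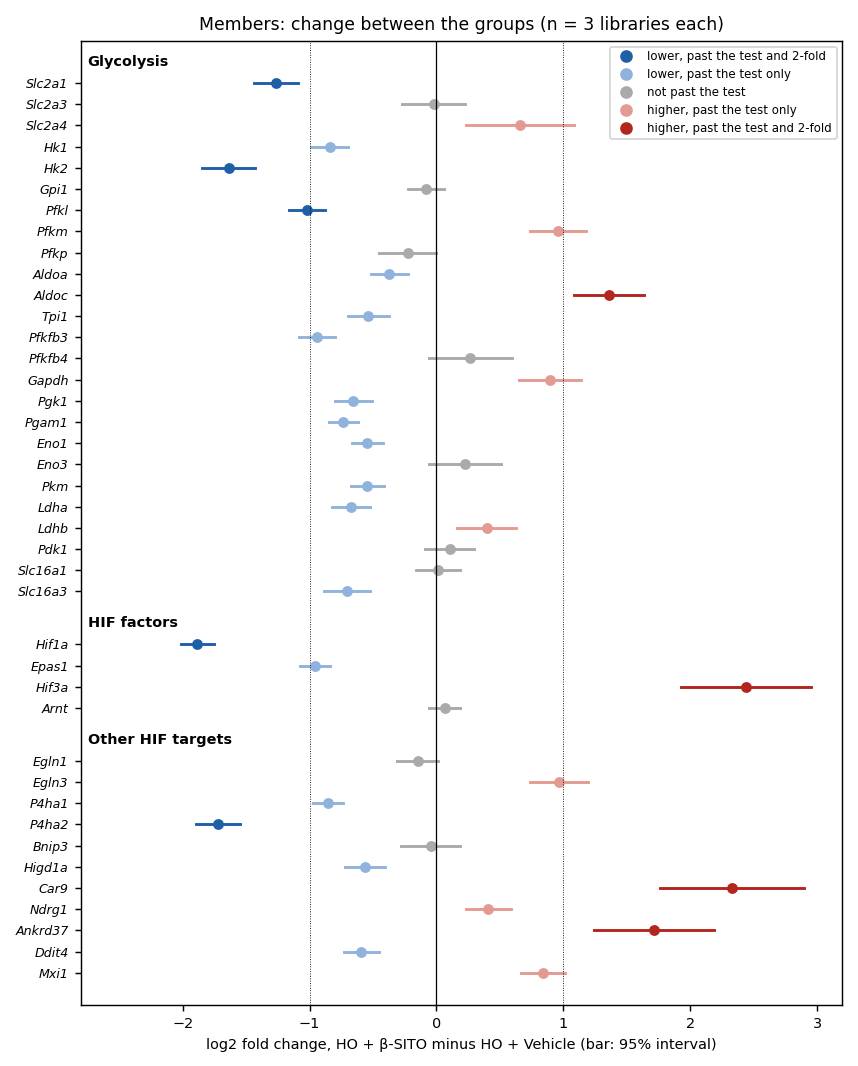
Log2 fold change of each of the 40 genes, HO + β-SITO minus HO + Vehicle, with its 95% interval from edgeR's quasi-likelihood fit (3 libraries in each group), and dotted lines at 2-fold. The largest fall is that of Hif1a at -1.88 and the largest rise that of Hif3a at 2.44, and 13 of the 25 glycolysis genes lie between 0 and a fall of 2-fold.

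HIF binds a short core sequence, ACGTG or GCGTG, so the promoters of the genes were searched for these letters on both strands. RefSeq promoters (build GRCm38.p6, an older build than the GRCm39 of the counts) were at hand for 36 of the 40 genes, with 51 start sites in all. In the 250 bases before the start, 43 of these 51 promoters (84.3%) held at least 1 match, beside 12679 of 32851 promoters of all genes (38.6%). Some windows of the same gene overlapped, such as those of Eno1, so the same match could count more than once. The windows of these genes were also richer in G and C, with a median of 62.0% beside 52.4%, and both core words contain CG. ACGTG overlaps the E-box CACGTG, which stood in 6 of the 51 windows (11.8%) and in 6.02% of all. A match was found for 17 of the 18 genes with a promoter that fell, for 9 of the 9 that rose and for 8 of the 9 that did not pass the test, so genes of either direction carried the letters. Here a gene counted if any of its windows held a match, and no such share over all genes was at hand. The windows of 4 DEGs with 1 start site each are shown to let fallen and risen HIF targets be read side by side, 5′ to 3′ on the gene's strand and ending at the base before the start, with matches to either strand in capitals. They are Hk2 (chr6:82774455-82774704, minus strand) and P4ha2 (chr11:54100674-54100923, plus strand), which fell, and Car9 (chr4:43506776-43507025, plus strand) and Ankrd37 (chr8:45999851-46000100, minus strand), which rose.
Hk2: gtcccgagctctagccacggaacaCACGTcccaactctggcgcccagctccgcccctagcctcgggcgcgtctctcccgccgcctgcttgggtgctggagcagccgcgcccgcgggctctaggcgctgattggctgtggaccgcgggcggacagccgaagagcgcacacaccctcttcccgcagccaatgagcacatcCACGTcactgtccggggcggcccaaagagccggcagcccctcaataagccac
P4ha2: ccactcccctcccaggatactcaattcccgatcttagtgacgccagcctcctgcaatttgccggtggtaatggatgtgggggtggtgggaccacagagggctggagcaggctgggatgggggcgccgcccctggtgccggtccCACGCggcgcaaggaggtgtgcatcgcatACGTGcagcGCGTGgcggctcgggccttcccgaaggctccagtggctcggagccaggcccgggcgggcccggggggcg
Car9: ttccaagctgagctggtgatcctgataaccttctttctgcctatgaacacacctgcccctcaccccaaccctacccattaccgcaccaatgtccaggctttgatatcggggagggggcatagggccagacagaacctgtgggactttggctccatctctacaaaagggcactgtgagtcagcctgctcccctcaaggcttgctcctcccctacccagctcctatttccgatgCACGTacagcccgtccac
Ankrd37: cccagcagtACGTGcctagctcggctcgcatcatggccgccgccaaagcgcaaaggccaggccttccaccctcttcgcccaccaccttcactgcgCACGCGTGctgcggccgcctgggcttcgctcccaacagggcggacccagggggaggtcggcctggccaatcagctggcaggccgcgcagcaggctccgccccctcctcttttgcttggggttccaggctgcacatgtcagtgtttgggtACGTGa
Hk2 held 2 matches, P4ha2 3, Car9 1 and Ankrd37 4, and a match is a description of the letters and not a measured binding site.

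Among the 4 HIF subunits, both abundant α subunits fell in HO + β-SITO, the scarce Hif3a rose and the shared partner did not pass the test. Hif1a (ENSMUSG00000021109, chr12:73948149-73994304, plus strand, coordinates from the deposited table in GRCm39), the α subunit that drives most glycolytic genes, was at 648, 672 and 709 CPM in V1, V2 and V3 and at 182, 188 and 180.2 CPM in T4, T5 and T6. All HO + β-SITO libraries lay far below all HO + Vehicle libraries and close to each other. The level of Hif1a was 3.69-fold lower (log2 fold change -1.88 ± 0.06 SE, edgeR adjusted p = 3.17e-13). Epas1, the α subunit known for its role in endothelial and vascular cells, was at 493, 473 and 486 CPM in the HO + Vehicle libraries and at 247, 252 and 248 CPM in the HO + β-SITO libraries. The groups of Epas1 did not overlap either, and its fall of 1.94-fold stayed just under 2-fold (-0.96 ± 0.05 SE, edgeR adjusted p = 4.16e-10). Epas1 fell while the endothelial markers, all 6 of them DEGs, rose, and the part of the mix of cells in the change of Epas1 was not tested.

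Hif3a (ENSMUSG00000004328, chr7:16765432-16796352, minus strand), an α subunit with splice forms that can oppose the others, was scarce, with 16, 9 and 11 counts in V1, V2 and V3 and 74, 76 and 82 in T4, T5 and T6. These came to 1.01, 0.564 and 0.682 CPM and 3.80, 4.27 and 4.27 CPM. Every HO + β-SITO library was above every HO + Vehicle library, and the rise was 5.43-fold (2.44 ± 0.24 SE, edgeR adjusted p = 2.83e-07). Arnt, the constant partner, was at 117, 107 and 114 CPM and 117, 120.2 and 118 CPM, with overlapping groups. The log2 fold change of Arnt was 0.07 (95% interval -0.05 to 0.19, edgeR adjusted p = 0.314).

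Per kilobase, Hif1a was the most abundant α subunit in HO + Vehicle (115 CPM per kilobase) ahead of Epas1 (86.6), and in HO + β-SITO Epas1 (44.5) was ahead of Hif1a (31.1). As a share of the summed per-length level of the 3 α subunits, Hif1a took 55.4, 57.4 and 58.0% in V1, V2 and V3 and 40.7, 41.1 and 40.5% in T4, T5 and T6. The order of this pair was the same in every library of a group and opposite between the groups. The summed level of the 3 went from 201 ± 5.15 to 76.2 ± 1.17 CPM per kilobase (SD, n = 3).

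**Figure D2:**
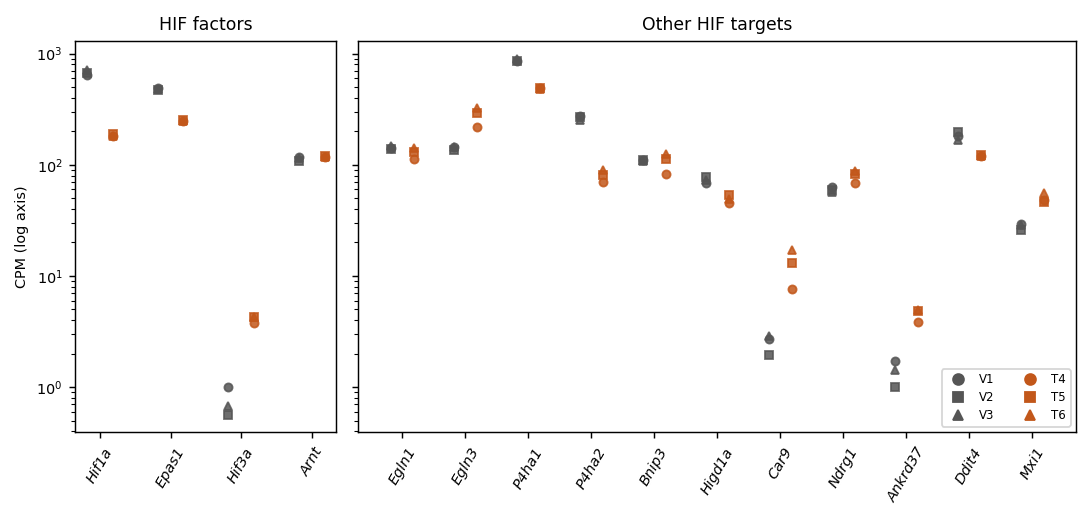
Level of each HIF subunit and each other HIF target in CPM on a log axis, 1 point per library (grey, HO + Vehicle; orange, HO + β-SITO). Hif1a and P4ha2 fall in all 3 HO + β-SITO libraries, and Hif3a, Car9 and Ankrd37 rise from under 3 CPM to between 3.80 and 17.1 CPM.

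Of the 25 genes of glucose uptake, glycolysis and lactate handling, 13 fell, 5 rose and 7 did not pass the test, with a median log2 fold change of -0.37. Of all tested genes, 33.8% fell and 33% rose. DEGs were 3 lower (Slc2a1, Hk2 and Pfkl) and 1 higher (Aldoc), beside 10.1% lower and 12.8% higher of all tested genes. The 25 genes together took 1.07%, 1.07% and 1.01% of all counts in V1, V2 and V3 and 0.752%, 0.852% and 0.867% in T4, T5 and T6. The groups did not overlap in this share of raw counts. The summed CPM, which also carries the TMM factors and so differs from the raw share, was in HO + β-SITO 0.708 of that in HO + Vehicle. For the 15 enzymes of the pathway from hexokinase to pyruvate kinase alone the ratio was 0.72. Without T4 the same 13 genes fell and 7 rose, with Eno3 and Pdk1 added.

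Among the 3 glucose transporters, the main one fell and the insulin-responsive one rose. Slc2a1 (ENSMUSG00000028645, chr4:118965908-118995180, plus strand), the basal transporter GLUT1, was at 255, 219 and 234 CPM in HO + Vehicle and 85.8, 104 and 104 CPM in HO + β-SITO. The groups of Slc2a1 were well apart, a 2.40-fold fall (-1.26 ± 0.08 SE, edgeR adjusted p = 1.50e-09). Slc2a4, the insulin-responsive transporter GLUT4 of muscle and fat, was at 15.7, 14.1 and 14.4 CPM and 13.7, 27.9 and 28.5 CPM. T4 was below all HO + Vehicle libraries for Slc2a4, whereas T5 and T6 were near 2-fold above them. The rise of Slc2a4 (0.66 ± 0.20 SE, edgeR adjusted p = 0.00881) did not pass with DESeq2 (adjusted p = 0.0683), and without T4 it was 0.94 (edgeR adjusted p = 2.81e-09). Slc2a3, the high-affinity transporter GLUT3, was low in both groups, at 16.7, 14.3 and 15.7 CPM and 12.5, 16.2 and 17.3 CPM, and did not pass the test (-0.02, 95% interval -0.27 to 0.23).

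The hexokinases, which trap glucose in the cell, both fell. Hk2 (ENSMUSG00000000628, chr6:82702006-82751435, minus strand), the inducible form of muscle and a known HIF target, was at 269, 226 and 247 CPM in V1, V2 and V3 and at 65.1, 85.2 and 88.6 CPM in T4, T5 and T6. Its fall of 3.11-fold was the largest among the 25 genes (-1.64 ± 0.10 SE, edgeR adjusted p = 7.62e-10), and the groups did not overlap. Hk1, the widespread form, fell less, from 352 ± 21.4 to 197 ± 14.8 CPM (SD, n = 3; log2 fold change -0.84). Gpi1, the isomerase of the next step, did not pass the test, at 537, 542 and 509 CPM and 456, 517 and 527 CPM (-0.08, 95% interval -0.22 to 0.06).

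Of the phosphofructokinases, which catalyse the committed step, Pfkl fell and Pfkm rose. Pfkl (ENSMUSG00000020277, chr10:77822781-77845917, minus strand), named for liver, was at 427, 419 and 393 CPM and 185, 211 and 215 CPM, a fall in every library. The fall of Pfkl lay at the 2-fold limit (-1.02 ± 0.07 SE, edgeR adjusted p = 2.45e-09). It was -0.95 without T4 and -0.97 without V1, no longer a DEG in either case. Pfkm, the muscle form, was at 62.7, 53.5 and 56.0 CPM in HO + Vehicle and 89.5, 123 and 122 CPM in HO + β-SITO, with all HO + β-SITO libraries above. Its rise of 1.94-fold (0.96 ± 0.10 SE, edgeR adjusted p = 8.69e-07) became a DEG without T4 (1.09) or without V1 (1.05). Pfkp, named for platelets, did not pass the test (-0.23, unadjusted 95% interval -0.45 to -0.01, edgeR adjusted p = 0.0651), but it passed without V2 (-0.31) and without T6 (-0.31). Pfkm overlaps Senp1 and Pfkp overlaps Pitrm1 on the opposite strand, whose counts were 39.2% and 55.4% of theirs, and whether the counting used strand was not stated.

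The PFKFB enzymes make and remove the activator of phosphofructokinase. Pfkfb3, the strongly activating and hypoxia-inducible form, fell from 144, 126 and 139 CPM to 67.1, 71.7 and 73.7 CPM with no overlap (-0.94 ± 0.07 SE, edgeR adjusted p = 4.88e-09). Pfkfb4 was the scarcer of the pair per kilobase in every library. Its level was 9.85, 7.02 and 7.07 CPM and 10.8, 10.1 and 7.91 CPM, with overlapping groups. It did not pass the test (0.27, 95% interval -0.06 to 0.60), but did so without V1 (0.47) and without T6 (0.40).

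Of the aldolases, which split the hexose, the abundant and the rare one moved apart. Aldoa, the muscle form, was at 1398, 1431 and 1269 CPM and 977, 1095 and 1096 CPM, a fall with no overlap (-0.37 ± 0.07 SE, edgeR adjusted p = 1.84e-04). Aldoc (ENSMUSG00000017390, chr11:78213794-78218607, plus strand), known from brain, rested on 74, 61 and 70 counts in V1, V2 and V3 and 202, 194 and 225 counts in T4, T5 and T6. All HO + β-SITO libraries were above all HO + Vehicle libraries, a 2.57-fold rise (1.36 ± 0.13 SE, edgeR adjusted p = 1.68e-07). Tpi1, the triose isomerase, fell from 908 ± 38.9 to 626 ± 66.2 CPM (SD, n = 3; log2 fold change -0.54).

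In the second stage of glycolysis, from triose phosphate to pyruvate, 4 of the 6 enzymes fell by like amounts, 1 rose and 1 did not pass. Pgk1, the first ATP-yielding kinase, fell by 0.65 on the log2 scale, from 1137, 1123 and 1101 CPM to 641, 749 and 744 CPM. Pgam1, the mutase, fell by 0.73, Eno1, the widespread enolase, by 0.54, and Pkm, pyruvate kinase, by 0.55. No library of 1 group overlapped the other for these 4 genes, and their edgeR adjusted p ran from 9.33e-09 (Pgam1) to 1.11e-06 (Pkm). Eno3, the muscle enolase, was at 93.0, 81.6 and 82.1 CPM and 71.6, 112 and 117 CPM. T4 was the lowest of the 6 libraries and T5 and T6 were the highest, so that Eno3 did not pass with T4 (0.23, edgeR adjusted p = 0.144) and rose without it (0.42, edgeR adjusted p = 1.81e-05).

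Gapdh, the dehydrogenase between Tpi1 and Pgk1, went the other way from its neighbours. It was at 180.3, 195 and 145 CPM in V1, V2 and V3 and at 286, 293 and 389 CPM in T4, T5 and T6. All HO + β-SITO libraries were higher, by 1.86-fold (0.90 ± 0.11 SE, edgeR adjusted p = 5.23e-06). Per kilobase Gapdh was at 41.9 CPM in HO + Vehicle and 78.0 CPM in HO + β-SITO, below Tpi1 (329.7 and 227) and Pgk1 (499 and 317) in both. Of the 50-base words in Gapdh transcripts of GENCODE vM21, 25.1% also stood in transcripts of 223 other genes, and how reads that match several genes were counted was not stated, so its level and its change are uncertain. The same holds for Pgk1 (53.9% of words shared), Pgam1 (36.2%), Eno1 (26.0%), Pkm (25.8%) and Ldhb (21.0%), and for Bnip3 (47.2%), Higd1a (24.4%), Ankrd37 (17.0%) and Gpi1 (15.8%).

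**Figure D3:**
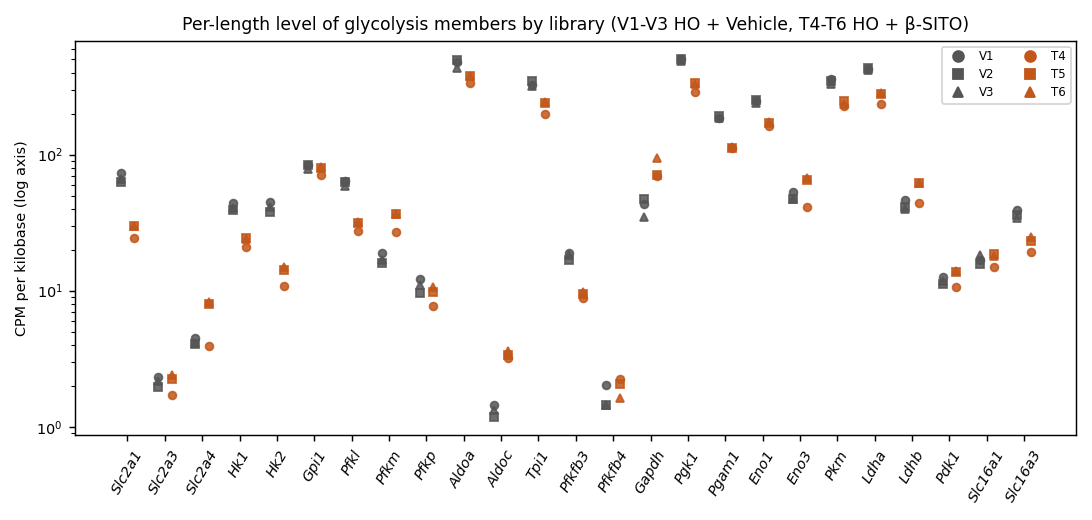
Level of each of the 25 glycolysis genes in CPM per kilobase on a log axis, 1 point per library (grey, V1 to V3; orange, T4 to T6). The abundant enzymes such as Aldoa, Pgk1, Pkm and Ldha fall together, whereas Slc2a4, Pfkm, Aldoc, Gapdh and Ldhb rise, with T4 at the bottom of the HO + β-SITO points for Slc2a4, Eno3 and Ldhb.

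Of the 5 genes of pyruvate and lactate handling, Ldha and Slc16a3 fell, Ldhb rose, and Slc16a1 and Pdk1 did not pass the test. Ldha, the muscle-type subunit of lactate dehydrogenase, was at 1403, 1422 and 1379 CPM and 781, 919 and 936 CPM, with no overlap (-0.67 ± 0.07 SE, edgeR adjusted p = 5.54e-07). Slc16a3, the lactate exporter MCT4, fell from 209.6, 190.2 and 181 CPM to 101, 124 and 131 CPM (-0.70 ± 0.09 SE, edgeR adjusted p = 2.96e-06), and its opposite-strand neighbour Csnk1d, with 113% of its counts, had a log2 fold change of -0.02. Ldhb, the heart-type subunit, was at 72.5, 64.9 and 62.6 CPM and 68.9, 96.9 and 97.4 CPM. Only T4 overlapped the HO + Vehicle libraries for Ldhb, whose rise was 0.40 ± 0.11 SE (edgeR adjusted p = 0.00452) and 0.54 without T4. Slc16a1, the carrier MCT1, did not pass the test (0.01, 95% interval -0.16 to 0.19). Pdk1, the kinase that shuts pyruvate dehydrogenase under hypoxia, did not pass either, at 97.9, 86.8 and 91.4 CPM and 82.2, 106 and 109 CPM (0.11, 95% interval -0.09 to 0.30), but rose without T4 (0.22, edgeR adjusted p = 0.00753).

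Since paralogs of a step moved apart, the share of each paralog in the summed per-length level of its family was taken within each library, which removes the scaling between libraries. In 11 families 17 shares were compared, and for 16 of them the groups did not overlap. Of single tested genes 70.5% did not overlap, and no such figure for shares over all genes was at hand. The shares of a family depend on each other and come from the same counts as the gene changes above, so they are not separate results. Where the groups of a share did not overlap, the exact two-sided permutation p was 0.1, the smallest that 3 libraries against 3 allow. It was 0.106 after Benjamini-Hochberg adjustment over the 17 shares, so no share could pass a threshold of 0.05.

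The largest shift was in phosphofructokinase. Pfkl made up 67.3, 71.0 and 67.9% of the family in V1, V2 and V3 and 44.5, 40.4 and 40.5% in T4, T5 and T6, and Pfkm 19.8, 18.1 and 19.3% and 43.1, 47.0 and 46.1%. Pfkl led in every HO + Vehicle library by a wide margin, and Pfkm led in T5 and T6 while T4 had both at about the same share. The order in HO + β-SITO rests on the division by exon length. In CPM without that division, Pfkl was ahead of Pfkm in T4 (185 and 89.5), T5 (211 and 123) and T6 (215 and 122). The share of Pfkp was 12.2% ± 1.13 and 12.8% ± 0.492 (SD, n = 3), the only share with overlapping groups (exact p = 0.6). The family's summed level went from 90.0 ± 4.44 to 73.2 ± 9.62 CPM per kilobase, 1.23-fold lower. As a fold this was smaller than the fall of Pfkl (2.03-fold) or the rise of Pfkm (1.94-fold).

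Among the transporters, Slc2a1 went from 91.3% ± 0.117 to 76.4% ± 4.17 of the family and Slc2a4 from 5.77% ± 0.141 to 17.8% ± 4.14 (SD, n = 3). The Slc2a4 share was higher in T4 as well (13.0, 20.1 and 20.3% in T4, T5 and T6), although its CPM was not. Ldhb went from 9.11% ± 0.614 to 17.3% ± 1.40 of lactate dehydrogenase, Eno3 from 16.6% ± 0.998 to 25.2% ± 4.28 of the enolases and Pfkfb4 from 8.29% ± 1.17 to 17.4% ± 2.91 of its pair. In these 3 families the share in T4 too lay above those of all HO + Vehicle libraries. A share also rises when its partner falls, and Ldha, Eno1 and Pfkfb3 fell. In CPM, Eno3 in T4 (71.6) was below all HO + Vehicle libraries, Ldhb in T4 (68.9) within their range and Pfkfb4 in T4 (10.8) above them. Hk2, which is also enriched in muscle, went from 50.1% ± 0.878 to 36.5% ± 2.21 of the hexokinases. Slc16a3 went from 68.2% ± 2.80 to 56.6% ± 1.15 of the lactate carriers, and Aldoc stayed under 1% of the aldolases in all libraries. The size of all these shares rests on the division by exon length. In mean CPM without it, Eno3 was at 85.6 beside 1325 for Eno1 in HO + Vehicle, and at 100.1 beside 909 in HO + β-SITO.

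**Figure D4:**
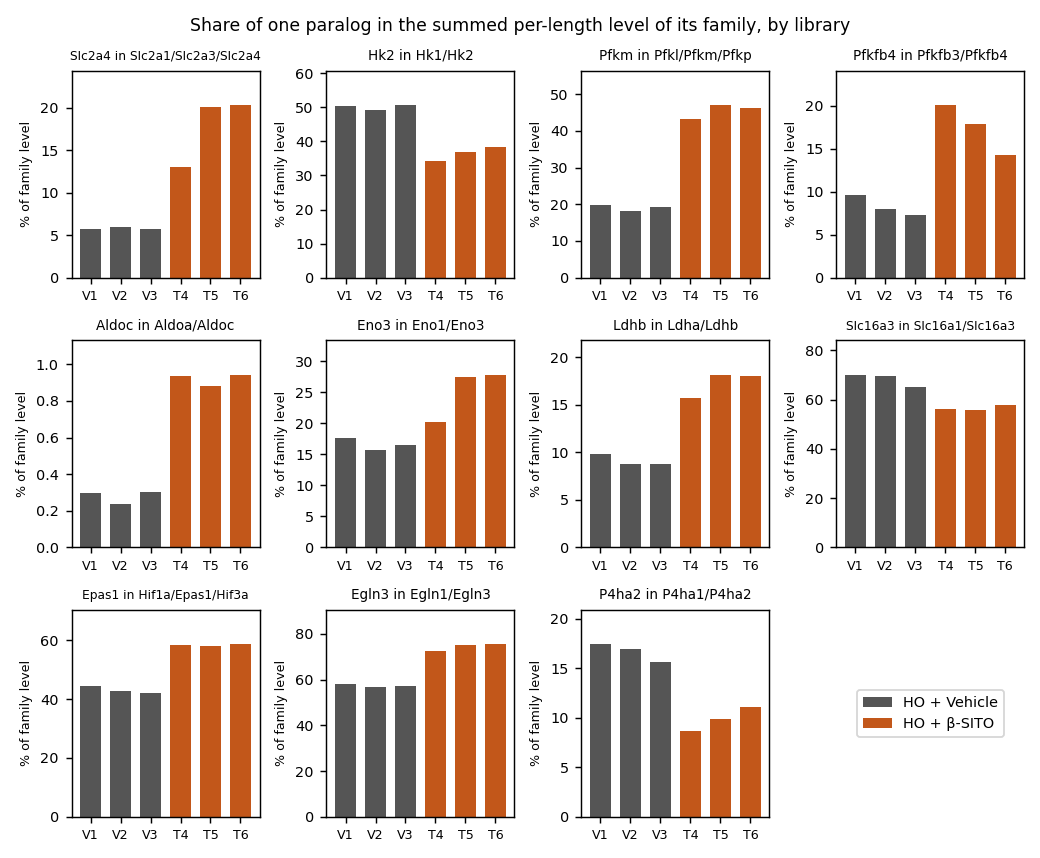
Share of 1 paralog in the summed CPM per kilobase of its family (percent, axes from 0), 1 bar per library, for 11 families (grey, HO + Vehicle; orange, HO + β-SITO). Pfkm rises from 18.1% to 19.8% up to 43.1% to 47.0%, and Hk2, Slc16a3 and P4ha2 are the shown paralogs whose share falls.

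Of the 11 other HIF targets, 4 fell, 5 rose and 2 did not pass the test, with a median log2 fold change of -0.04. DEGs were 1 lower (P4ha2) and 2 higher (Car9 and Ankrd37). These counts lay near the shares over all tested genes, of which 33.8% fell and 33% rose.

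The collagen prolyl hydroxylases, which modify collagen in the endoplasmic reticulum, both fell. P4ha2 (ENSMUSG00000018906, chr11:53990921-54022491, plus strand) was at 277, 268 and 254 CPM and 70.0, 81.7 and 90.5 CPM, far apart, a 3.30-fold fall (-1.72 ± 0.08 SE, edgeR adjusted p = 3.48e-11). P4ha1 was at 864, 867 and 905 CPM and 489, 489 and 478 CPM, with narrow spread in both groups and a fall of 1.81-fold (-0.86 ± 0.06 SE, edgeR adjusted p = 2.18e-09). Fibroblasts express both, and the part of the fibroblast markers, whose members moved in both directions, was not tested.

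The HIF hydroxylases, themselves HIF targets, differed. Egln3 was at 146, 135 and 146 CPM in HO + Vehicle and 217, 293 and 323 CPM in HO + β-SITO, higher in every library and lowest in T4 within its group. Its rise of 1.95-fold (0.97 ± 0.11 SE, edgeR adjusted p = 1.06e-06) became a DEG without T4 (1.12), without V1 (1.01) or without V3 (1.01), and also when scaled by upper quartile (1.11) or library size alone (1.11). Egln1, the main hydroxylase of HIF α subunits, was at 141, 138 and 147 CPM and 112, 132 and 142 CPM and did not pass (-0.15, 95% interval -0.31 to 0.02), but fell without T6 (-0.21). The share of Egln3 in the pair went from 57.5% ± 0.699 to 74.3% ± 1.67 (SD, n = 3), with no overlap.

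Car9 (ENSMUSG00000028463, chr4:43506966-43513729, plus strand), a cell-surface carbonic anhydrase widely used as a marker of hypoxia, had 43, 31 and 46 counts in V1, V2 and V3 and 148, 235 and 328 counts in T4, T5 and T6. In CPM these were 2.72, 1.94 and 2.85 and 7.61, 13.2 and 17.1. Every HO + β-SITO library was above every HO + Vehicle library, but they spread widely, with T6 more than 2-fold above T4. The rise was 5.03-fold (2.33 ± 0.27 SE, edgeR adjusted p = 1.46e-06). Ankrd37 (ENSMUSG00000050914, chr8:46449939-46458744, minus strand), an ankyrin repeat gene, rose from 27, 16 and 23 counts to 75, 86 and 95 counts (1.72 ± 0.22 SE, edgeR adjusted p = 5.94e-06). It overlaps the far more abundant Ufsp2 on the other strand, with 1030.0% of its counts and a log2 fold change of -0.27, so reads of the pair may be mixed.

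Of the mitochondrial targets, Higd1a, a small protein of the inner membrane, fell from 68.2, 78.2 and 73.3 CPM to 45.5, 53.3 and 49.6 CPM (-0.57), and Bnip3, a mitophagy receptor, did not pass the test. Bnip3 was at 112, 111 and 109 CPM in HO + Vehicle and 82.2, 114 and 125 CPM in HO + β-SITO, with the HO + Vehicle libraries almost equal, T4 below them and T5 and T6 above. Its log2 fold change was -0.04 (95% interval -0.28 to 0.19) and turned to 0.12 without T4. Ddit4, an inhibitor of mTORC1, fell from 180.0, 197 and 169 CPM to 119, 122 and 121 CPM (-0.59 ± 0.06 SE, edgeR adjusted p = 7.76e-07). Mxi1, an antagonist of Myc, rose from 29.1, 26.0 and 28.8 CPM to 48.1, 46.7 and 55.5 CPM (0.84 ± 0.08 SE, edgeR adjusted p = 2.43e-07), with no overlap. Ndrg1, a stress-response gene, rose from 60.1 ± 2.94 to 79.9 ± 10.1 CPM (SD, n = 3; log2 fold change 0.41), again without overlap.

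**Figure D5:**
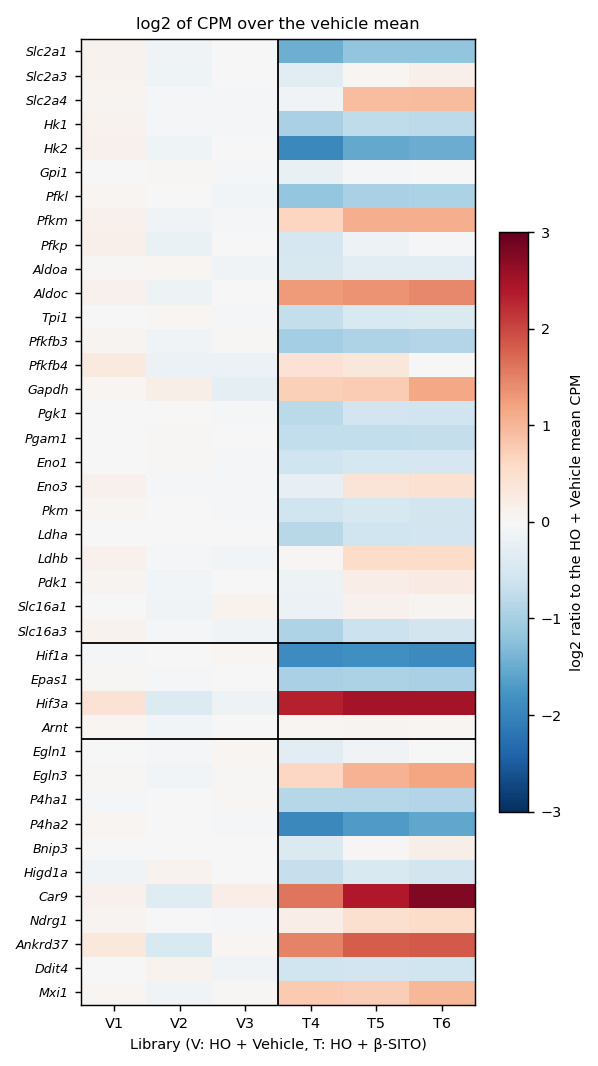
Log2 ratio of CPM in each library to the HO + Vehicle mean, for the 40 genes in rows and the 6 libraries in columns (blue, lower; red, higher), with black lines between glycolysis genes, HIF subunits and other HIF targets. The HO + Vehicle columns are near 0, and T4 is the lowest HO + β-SITO library for 35 of the 40 genes.

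Within the groups, the libraries differed in a shared manner. V1 was the highest HO + Vehicle library for 25 of the 40 genes and T6 the highest HO + β-SITO library for 27, and the coefficient of variation was larger in HO + β-SITO for 29. These counts were not made over all tested genes. For Hif1a, Epas1, Arnt, P4ha1 and Ddit4, T4, T5 and T6 lay closer together than V1, V2 and V3 did. The same held for some glycolysis genes, such as Pgam1 (SD 5.76 CPM in HO + Vehicle and 2.72 CPM in HO + β-SITO) and Pfkfb3 (9.28 and 3.39 CPM).

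Other genes of the same pathways were counted over lists written for this comparison, to be read beside all tested genes, of which 33.8% fell and 33% rose (10.1% and 12.8% as DEGs). Of 23 other glycolysis genes 14 were tested, of which 7 fell and 4 rose (3 and 2 as DEGs), with a median log2 fold change of 0.00. The transporter Slc2a6 (GLUT6) was at 151, 142 and 135 CPM in HO + Vehicle and 1.18, 1.57 and 1.51 CPM in HO + β-SITO, a 100.1-fold fall (edgeR adjusted p = 1.19e-16). Eno2, the neuronal enolase, fell from 59.1, 53.9 and 54.9 CPM to 10.5, 9.05 and 10.4 CPM (-2.49), and the transporter Slc2a8 rose by 1.01 on the log2 scale. Outside the rule for naming genes, the other DEGs of this list were Slc2a12 (-1.39) and Slc16a7 (2.20), named after their values were seen. Pgam2, the muscle mutase, rose by 0.58.

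Of 12 genes for the entry of pyruvate into mitochondria, 6 fell and 3 rose (median -0.22), with 1 DEG, the phosphatase Pdp2 (-1.04). The subunits of the mitochondrial pyruvate carrier moved apart, Mpc1 with -0.72 and Mpc2 with 0.48. Of the further pyruvate dehydrogenase kinases, Pdk2 rose by 0.77 and Pdk4 by 0.44, whereas Pdk3, named after its values were seen, fell (-0.60). Of 8 genes of the pentose phosphate pathway, which branches off glucose 6-phosphate to yield NADPH, 5 fell and 1 rose (median -0.54). Both DEGs were glucose 6-phosphate dehydrogenases, H6pd (-1.33), the form of the endoplasmic reticulum, and G6pdx (-1.02), the rate-limiting cytosolic form, which was at 129, 127 and 124 CPM and 64.6, 59.8 and 62.6 CPM.

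Of 13 listed genes of glycogen metabolism 12 were tested, of which 8 rose and 3 fell (median 0.51). Pygl, a glycogen phosphorylase, rose from 18.6, 14.5 and 16.0 CPM to 49.6, 49.5 and 51.7 CPM (1.62 ± 0.09 SE, edgeR adjusted p = 1.86e-10). Ppp1r3c, a glycogen-targeting subunit of protein phosphatase, rose by 1.46, and Pgm1, which links glycogen to glycolysis, fell (-1.11). The other fallen genes were those of glycogen synthase, Gys1 (-0.91), and of the branching enzyme, Gbe1 (-0.54), both named after their values were seen.

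Of 14 regulators of the HIF pathway, 6 fell and 3 rose (median -0.13), with 1 DEG, Arnt2, a partner of α subunits best known from neurons, which rose from 4.80, 4.20 and 3.84 CPM to 17.3, 18.1 and 17.0 CPM (2.03 ± 0.11 SE, edgeR adjusted p = 3.54e-10). The hydroxylase Egln2 (-0.22) and Vhl (-0.15) fell and the coactivator competitor Cited2 rose (0.19). Of the partners of VHL in its ubiquitin ligase, Rbx1 (-0.47), Eloc (-0.42) and Cul2 (-0.39) fell and Elob did not pass the test (-0.15), all 4 named after their values were seen. Hif1an, the asparaginyl hydroxylase, did not pass the test (0.03, 95% interval -0.11 to 0.17).

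Of 30 further HIF targets, 18 fell and 7 rose (median -0.33), with 8 DEGs lower and 3 higher, beside 33.8% and 33% of all tested genes by the test and 10.1% and 12.8% as DEGs. Nos2, the inducible nitric oxide synthase, fell 94.0-fold, from 422, 375 and 389.8 CPM to 3.75, 4.95 and 3.96 CPM. Car12, a carbonic anhydrase like the risen Car9, fell 19.4-fold, and Angptl4, an inhibitor of lipoprotein lipase, 9.28-fold. Vegfa, the angiogenic factor, fell by less, from 261, 237 and 258 CPM to 152, 199 and 225 CPM (-0.40 ± 0.10 SE, edgeR adjusted p = 0.00334), and Bnip3l, a mitophagy receptor related to Bnip3, had a change of -0.23. The 3 risen DEGs were Cxcr4 (2.69), Higd1b (1.93) and Edn1 (1.17), also named after their values were seen.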

How the data were processed

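The authors deposited 1 table of raw counts of reads per gene for the 6 libraries, made per the labels with FastQC, HISAT2, featureCounts and GRCm39 (versions and counting options not given in the sources used here). The library kit is named as ABclonal in the study's methods and as Illumina TruSeq in the labels. From these counts, edgeR 4.0.16 in R 4.3.3 was used with filterByExpr (minimum count 10), TMM factors (0.945 to 1.06) and the quasi-likelihood test with group as the only term, adjusted by the Benjamini-Hochberg method over the 14799 genes tested. DEGs had an adjusted p under 0.05 and a change of more than 2-fold. The biological coefficient of variation was 6.52%. Standard errors are the log2 fold change over the square root of the F statistic, with 95% intervals from the t distribution of the same fit.

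The counts gave no gene length, so CPM per kilobase used the exon length of GENCODE vM21 (an older build), matched by gene ID for 40 of the 40 genes. This length counted every base in any exon of any transcript of a gene, such as 5379 bases for Eno1 and 1739 for Eno3. Promoters were RefSeq, GRCm38.p6. DESeq2 1.42.0 and limma 3.58.1 served as alternatives. Scripts were tested on simulated data. The 40 genes, the pathway lists and the markers were chosen with earlier results of these data known. Genes named outside the 40 were a fixed set of 13 pathway genes and, per list, the up to 3 most changed DEGs whose groups did not overlap and whose counts averaged 100 or more. Precision is limited by the 3 libraries in each group and, for scarce genes such as Hif3a and Ankrd37, by their counts.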

Additional observations from a re-analysis of the deposited data

How the results depend on the processing

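Each result was computed again with DESeq2, limma-voom, a test against 2-fold (glmTreat), other scalings, other filters on low counts, without mitochondrially encoded genes and without each library in turn. No paired analysis was made, because the labels number the replicates 1 to 3 and 4 to 6 and do not say whether any libraries were paired. With no fold threshold the calls over all tested genes were 5007 lower and 4885 higher, those of glycolysis 13 lower and 5 higher, those of HIF subunits 2 lower, and those of other HIF targets 4 lower and 5 higher. Scaling by upper quartile or by library size alone raised the median of all genes by 0.14 and 0.15 on the log2 scale. Under either, the higher glycolysis DEGs became 3 (Aldoc, Pfkm and Gapdh), Pfkl was no longer a DEG (-0.88 and -0.87) and Egln3 became one (1.11 and 1.11). By the test alone with library size, a setting added after the data were seen, 8 glycolysis genes and 2 HIF subunits (Hif3a and Arnt) rose. Over the fits without 1 library the higher glycolysis DEGs numbered 1 to 2 (Pfkm joined Aldoc without V1 or T4). With glmTreat Pfkl was the only one of the 9 DEGs lost (adjusted p = 0.772). Genes that did not pass the test changed sign in some settings. With the upper quartile and with library size alone, Slc2a3 was at 0.12 and 0.13, Gpi1 at 0.0602 and 0.0652 and Bnip3 at 0.10 and 0.10, and Egln1 was at 0.0025 with library size. Over the fits without 1 library, Slc2a3 ran from -0.11 (without T6) to 0.11 (without T4), Bnip3 from -0.16 (without T6) to 0.12 (without T4) and Slc16a1 from -0.037 (without V2) to 0.10 (without T4). Without division by length, 9 of the 17 paralog shares moved by more than their spread and none changed direction. Pfkl rather than Pfkm then led phosphofructokinase in T5 and T6. The causes of these changes were not tested.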
